A study of Mus musculus with 12 samples.

Results

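Atf4, Cdkn1a and Mdm2 are 3 stress genes whose coding regions were followed through RNA-seq and ribosome profiling of mouse small-intestinal organoids, which are cultured buds of intestinal epithelium. They were chosen by name, but with earlier results of these data known. Their transcripts were ENSMUST00000023829.8 (Cdkn1a, ENSMUSG00000023067.14), ENSMUST00000020408.16 (Mdm2, ENSMUSG00000020184.15) and ENSMUST00000109605.5 (Atf4, ENSMUSG00000042406.8). A row was kept only if its listed length lay from 25 below to 5 above the length of the protein, and all 3 transcripts passed. The listed lengths of 150 (Cdkn1a), 480 (Mdm2) and 340 (Atf4) each lay 9 below that of the protein, so they were read as counted codons of the main coding region. The 3 stand among 40818 transcript groups, a group being a set of rows that share reads. Cdkn1a shared its group with 3 further rows of identical counts, Mdm2 with 1 further row, and Atf4 stood alone.

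The organoids were wild type (WT, Eif4g2+/+), heterozygous (Het, Eif4g2+/-) or homozygous mutant (KO, Eif4g2-/-), with 2 libraries per genotype in each assay and 12 in all. Every group, WT included, had grown for 3 days with R-spondin-1, Noggin and epithelial growth factor and had received 0.5 µM 4-OHT (hydroxytamoxifen, the active form of tamoxifen) for 24 hours. Each title carries a number that occurs in both assays, as in RNA_6026_WT and Ribo_6026_WT, and the labels do not say whether it marks a mouse, a line or a culture. Libraries of a genotype are given below in the order of these numbers. The labels name neither the allele nor a Cre driver, and no age. The p-values below measure the spread between samples of a genotype, which may be technical. The tests estimate that spread partly from other transcript groups. The level of Eif4g2 and cell type markers were not analysed here, because no table used here pairs transcript IDs with symbols. In these bulk samples fewer cells of a type and less RNA per cell cannot be told apart.

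Atf4 encodes the transcription factor at the centre of the integrated stress response, in which phosphorylation of the initiation factor eIF2 slows translation in general. Upstream open reading frames in the Atf4 leader hold ribosomes away from the main coding region, and that block is relieved when eIF2 is phosphorylated. Cdkn1a encodes p21, an inhibitor of cyclin-dependent kinases that halts the cell cycle, and Mdm2 encodes the ubiquitin ligase that marks p53 for degradation. Both are classic transcriptional targets of p53, and Mdm2 closes a negative feedback loop on it. Eif4g2 encodes an initiation factor related to eIF4G that lacks the part which binds the cap-binding protein eIF4E. RNA-seq here reports how much of an mRNA was present, footprints report how many ribosomes were on its coding region, and ribosome density is the ratio of both.

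The promoters are shown since Cdkn1a and Mdm2 are known through control by p53 and Atf4 through the stress response. Which start site gave the RNA counted here was not tested. Each window ends at its start site, so that control elements after it, such as the Atf4 leader, are not shown. The sequences are the 250 bases before a listed start site from RefSeq (GRCm38.p6), whereas the submitters' processing notes name mm39. All 3 symbols matched the table. Capitals mark letters of the CCAAT box, the TATA box (TATAAA), the GC box (GGGCGG), the cAMP response element (TGACGTCA), the composite site of ATF4 with C/EBP proteins (TGATGNAAN) and the p53 half-site, searched on both strands.
Atf4, chr15:80254934-80255183, plus strand: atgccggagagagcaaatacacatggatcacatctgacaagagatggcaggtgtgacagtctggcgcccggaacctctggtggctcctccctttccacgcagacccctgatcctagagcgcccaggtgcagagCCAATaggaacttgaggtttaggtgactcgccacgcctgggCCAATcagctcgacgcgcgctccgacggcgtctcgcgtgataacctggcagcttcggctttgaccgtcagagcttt
Mdm2, chr10:117710759-117711008, minus strand: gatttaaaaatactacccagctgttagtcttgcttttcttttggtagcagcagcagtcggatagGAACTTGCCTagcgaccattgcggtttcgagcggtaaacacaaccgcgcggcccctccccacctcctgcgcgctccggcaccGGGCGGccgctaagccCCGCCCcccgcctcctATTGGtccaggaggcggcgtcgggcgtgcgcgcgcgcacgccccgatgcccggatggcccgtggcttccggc
Cdkn1a, chr17:29090729-29090978, plus strand: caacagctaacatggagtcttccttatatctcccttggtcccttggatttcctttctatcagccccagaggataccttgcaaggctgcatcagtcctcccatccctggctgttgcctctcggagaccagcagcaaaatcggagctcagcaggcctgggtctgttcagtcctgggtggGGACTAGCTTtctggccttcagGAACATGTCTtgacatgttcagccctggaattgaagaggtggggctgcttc

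The Atf4 window held 2 CCAAT boxes, which begin 117 and 76 bases before the start site, and none of the other motifs. Among 32851 promoter windows of the same length, 33.8% held a CCAAT box. The Mdm2 window held 1 CCAAT box, 2 GC boxes, a motif of 32.7% of windows, and 1 p53 half-site 186 bases before the start. This Cdkn1a window, that of the upstream of 2 listed start sites, held 2 p53 half-sites at 73 and 51 bases before the start, with at most 13 bases between them, the spacing of a full p53 site. A p53 half-site occurred in 7.13% of windows and such a pair in 0.0639%. The window of the second Cdkn1a start site held 2 GC boxes only. No window of the 3 genes held a TATA box, a cAMP response element or the composite site, which 12.4%, 1.55% and 3.44% of all windows held. Only exact matches were marked, so that a half-site with a mismatch beside a marked one stays in small letters. A match of letters is a description of the sequence, not evidence of binding.

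Depth differed widely between assays and between genotypes. RNA-seq libraries held 199323 to 555114 counts over the groups and footprint libraries 2952405 to 13755533. RNA-seq totals were lowest in both WT libraries and highest in both KO libraries, the same order as the Atf4 RNA level described next, and the part of depth in that level was tested only by thinning. Levels are given in CPM, counts per 1000000 counts on the groups that passed the count filter of the assay, after TMM scaling.

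Atf4 RNA was higher in KO than in WT organoids and lay in between in Het organoids. RNA-seq gave 104.6 CPM (20 counts) and 158.6 CPM (26 counts) in RNA_6026_WT and RNA_6028_WT. RNA_6136_hetero and RNA_6139_hetero gave 267 CPM (94 counts) and 229 CPM (57 counts), and RNA_6070_homo and RNA_6072_homo gave 347 CPM (140 counts) and 363 CPM (173 counts). All 6 libraries fell into the order WT, Het, KO with no overlap between genotypes. How many of all groups show this order was not counted. The means were 132 ± 38, 248 ± 27 and 355 ± 12 CPM (SD, n = 2 each).

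Relative to WT, Atf4 RNA rose 2.73-fold in KO (95% interval 1.98 to 3.76), a log2 change of 1.45 with SE 0.23 (edgeR quasi-likelihood test, Benjamini-Hochberg adjusted p = 2.07e-05). In that comparison 15.5% of the 7493 groups tested were called at an adjusted p under 0.05, 7.19% as higher in KO and 8.35% as lower. A larger rise was found in 2.79% of groups, and a larger change in either direction in 5.87%. The rise was called under all 11 alternatives run for it, with log2 changes from 1.19 to 1.75, and was 1.49 with RNA-seq libraries thinned to the smallest total (edgeR adjusted p = 4.21e-05). In Het, Atf4 RNA rose 1.93-fold over WT (log2 change 0.95, SE 0.25, edgeR adjusted p = 0.0396), where 1.69% of groups were called, 0.587% as higher and 1.11% as lower. That Het call did not hold without RNA_6026_WT (log2 change 0.67, edgeR adjusted p = 0.399), without RNA_6136_hetero (0.79, adjusted p = 0.322) or with DESeq2 (0.92, adjusted p = 0.0843). The step from Het to KO was 0.50 (SE 0.18, edgeR adjusted p = 0.0797) and did not pass, where 5.99% of groups were called, 3.18% as higher in KO and 2.82% as lower. It passed at 0.52 with at least 10 counts required in every library (edgeR adjusted p = 0.0409).

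**Figure D1:**
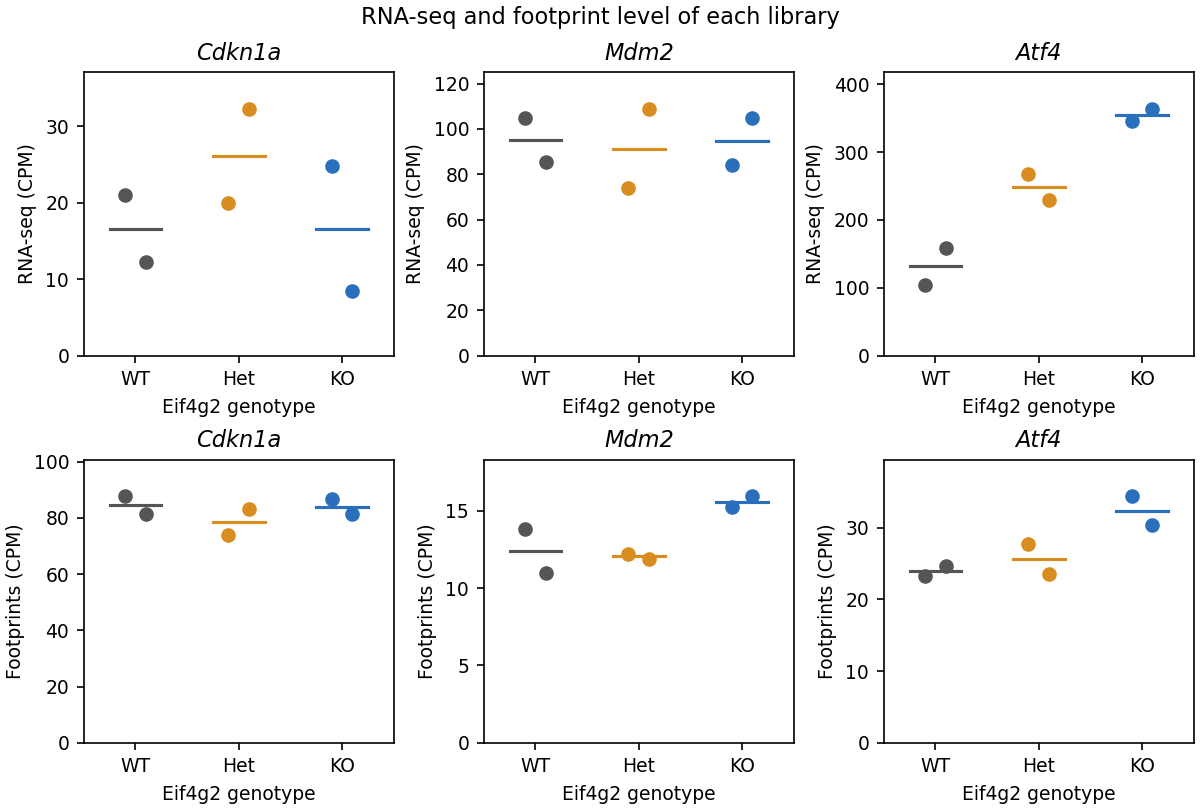
Level of each gene in every library in CPM, with RNA-seq in the upper row and footprints in the lower row. Points are libraries, bars are means of 2 libraries, and each axis starts at 0. Atf4 RNA climbed from a mean of 132 CPM in WT to 355 in KO, while Atf4 footprints went from 23.9 to 32.4 CPM and Cdkn1a footprints stayed between 74.0 and 87.6 CPM.

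Ribosomes on the Atf4 coding region increased much less than its RNA. WT footprints were 23.2 CPM (193 counts) and 24.6 CPM (72 counts), and Het footprints were 27.7 CPM (161 counts) and 23.5 CPM (192 counts). KO organoids gave 34.4 CPM (481 counts) and 30.4 CPM (292 counts). Both KO libraries lay above all 4 others, whereas WT and Het overlapped. How common such a separation is among all groups was not counted. Relative to WT the KO footprints rose 1.38-fold (95% interval 1.17 to 1.63), a log2 change of 0.46 with SE 0.11 (edgeR adjusted p = 0.00611).

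Called groups made up 24.9% of the 20495 tested for footprints in KO against WT, 11.1% as higher and 13.8% as lower. A footprint call was thus common. A larger rise than that of Atf4 was found in 11.4% of these groups, and a larger change in either direction in 27.2%. Relative to Het, Atf4 footprints rose by 0.36 on the log2 scale in KO (SE 0.11, edgeR adjusted p = 0.0195), where 22.9% of groups were called, 9.95% as higher and 12.9% as lower. Het against WT gave 0.10 (95% interval -0.17 to 0.37, edgeR adjusted p = 0.844), where 1.21% of groups were called, 0.644% as higher and 0.566% as lower. Neither KO call held with DESeq2 (0.44, adjusted p = 0.140, and 0.35, adjusted p = 0.315). The call against WT was lost without Ribo_6026_WT (0.41, edgeR adjusted p = 0.141) or Ribo_6070_homo (0.36, adjusted p = 0.0979). The call against Het was lost without Ribo_6070_homo (0.26, edgeR adjusted p = 0.240) or Ribo_6139_hetero (0.23, adjusted p = 0.297).

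Atf4 ribosome density was lower in KO than in WT organoids. The ratio of footprint to RNA-seq CPM was 0.222 and 0.155 for the WT organoids, 0.104 and 0.103 for Het and 0.0991 and 0.0837 for KO. Both WT ratios lay above all Het and KO ratios. The Het ratios lay above the KO ratios only with libraries paired by number, and that pairing was not taken as shown. The share of all groups with such an order was not counted. Density fell by 1.02 on the log2 scale in KO relative to WT (SE 0.26, 95% interval -1.55 to -0.50, edgeR interaction test, adjusted p = 0.0176), to 0.492 of the WT value. Of 19569 groups tested for density, 2.45% were called, 0.71% as higher in KO and 1.74% as lower. A larger fall than that of Atf4 was found in 19.1% of these groups, and a larger change in either direction in 32.9%. The median change over the 19569 groups was -0.08. The 479 calls split into 139 higher and 340 lower. With changes centred on that median, 471 calls split into 207 higher and 264 lower. A density call was commoner among 3440 groups with at least 10 counts in every library, as Atf4 had. There 17.2% were called, 254 groups as higher and 338 as lower.

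The density call did not hold under every alternative. It was lost without RNA_6026_WT and Ribo_6026_WT (log2 change -0.76, edgeR adjusted p = 0.411) and without RNA_6072_homo and Ribo_6072_homo (-0.90, adjusted p = 0.15), and with RNA-seq thinned to its smallest total (-0.98, adjusted p = 0.0656). The change kept its sign under all 13 alternatives, between -1.36 and -0.76. In Het the density change relative to WT was -0.87 (95% interval -1.44 to -0.30, edgeR adjusted p = 0.359), and KO against Het gave -0.15 (95% interval -0.56 to 0.25, edgeR adjusted p = 0.855). Called groups made up 0.046% in Het against WT, 0.0204% as higher and 0.0256% as lower, and 1.4% in KO against Het, 0.169% as higher and 1.23% as lower.

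**Figure D2:**
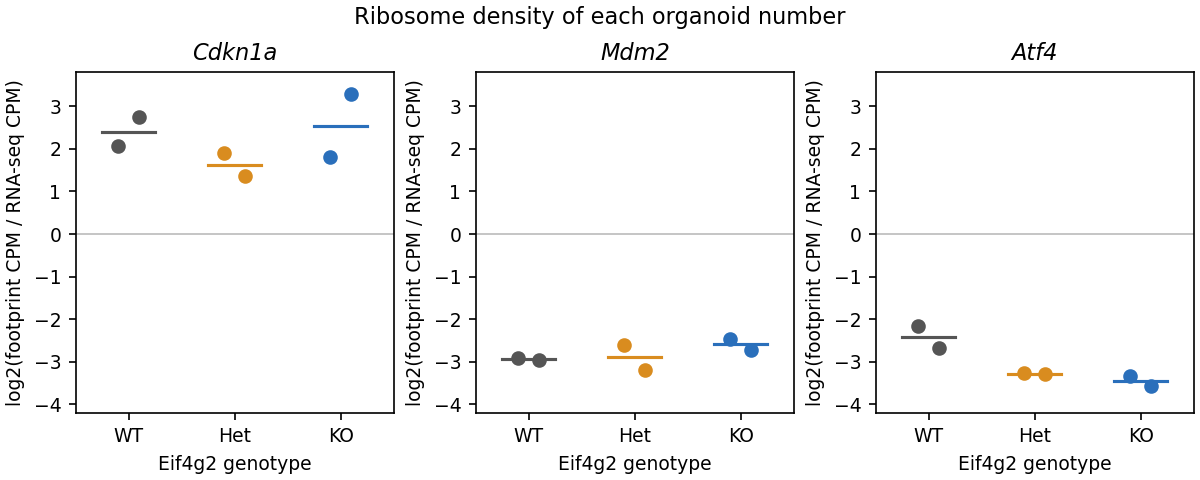
Ribosome density of each gene as log2 of footprint CPM over RNA-seq CPM, 1 point per organoid number and bars at the mean of 2. The Atf4 mean was -2.43 for WT, -3.28 for Het and -3.46 for KO, the points of Mdm2 stayed between -3.19 and -2.47, and the Cdkn1a points spread from 1.37 to 3.28.

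How often the 3 calls of Atf4 in KO against WT occurred together was counted over the groups. Of 7341 groups tested in RNA-seq, footprints and density, 539 had RNA called higher in KO than in WT. Footprints were also called higher in 175 of these (32.5%), and density was called lower in 216 (40.1%). Atf4 was 1 of 15 groups with all these calls. Over all groups of each test, footprints were called higher in 11.1% and density was called lower in 1.74%. Those tests include groups that did not pass the RNA-seq count filter, and shares over the 7341 groups were not counted. The shares are thus not directly comparable. The density test uses the same RNA-seq counts, so that the calls are not independent of each other. The pattern was taken from Atf4 itself, and higher footprints work against a lower density. The small count was thus partly set in advance.

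**Figure D3:**
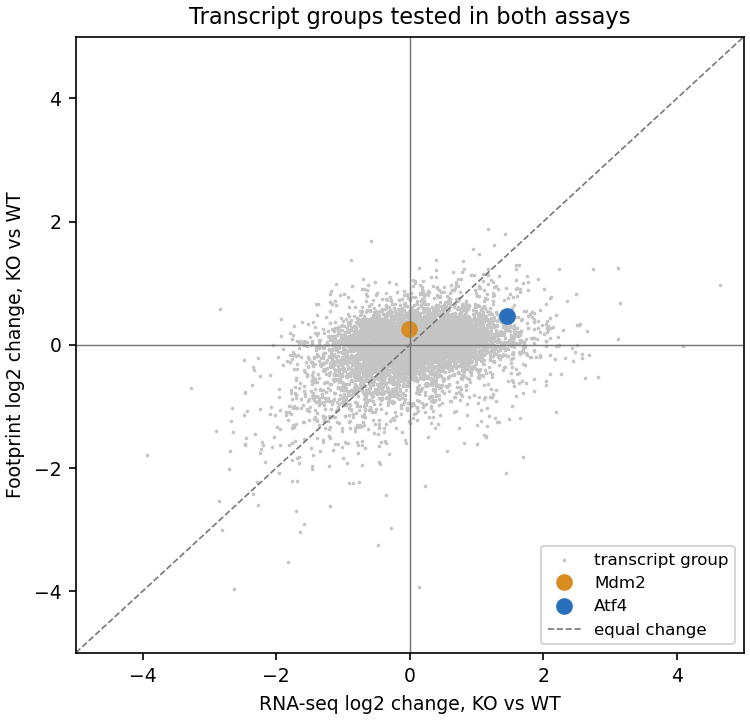
Log2 change of KO relative to WT in RNA-seq (horizontal) and in footprints (vertical) for the 7341 transcript groups tested in both assays and in density, with equal change on the dashed line. Atf4 sits at 1.45 and 0.46, below the dashed line, and Mdm2 at -0.01 and 0.26.

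Mdm2, the feedback ligase of p53, did not pass any of its 9 tests. Its RNA stood at 104.6 CPM (20 counts) and 85.4 CPM (14 counts) in WT, whereas Het libraries held 73.9 CPM (26 counts) and 108.7 CPM (27 counts). KO libraries held 84.2 CPM (34 counts) and 105.0 CPM (50 counts). The 3 genotypes overlapped throughout, with means of 95 ± 14, 91.3 ± 25 and 94.6 ± 15 CPM (SD, n = 2). The KO against WT log2 change in RNA was -0.01 with a 95% interval from -0.62 to 0.61 (edgeR adjusted p = 0.993), a fold between 0.651 and 1.52. Its sign turned under several alternatives listed in the closing section. Het against WT gave -0.11 (edgeR adjusted p = 0.914) and KO against Het 0.10 (adjusted p = 0.886).

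Mdm2 footprints were sparse, at 13.8 CPM (115 counts) and 10.9 CPM (32 counts) in WT, and Het libraries gave 12.2 CPM (71 counts) and 11.9 CPM (97 counts). Both KO libraries were above these, at 15.2 CPM (213 counts) and 15.9 CPM (153 counts). The log2 change was 0.26 relative to WT (95% interval -0.05 to 0.56, edgeR adjusted p = 0.213) and 0.37 relative to Het (95% interval 0.08 to 0.66, edgeR adjusted p = 0.0631). The change relative to WT was 0.51 without Ribo_6026_WT (edgeR adjusted p = 0.184) and 0.16 without Ribo_6028_WT (adjusted p = 0.522). Het against WT gave -0.11 (edgeR adjusted p = 0.874). Both KO libraries thus lay above the rest, but no difference passed the test over all groups. Footprints were called in 24.9% of groups in KO against WT and in 22.9% in KO against Het. The share of groups separated like Mdm2 was not counted.

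Mdm2 density showed no called difference. The footprint to RNA-seq ratio was 0.132 and 0.128 for WT organoids, 0.165 and 0.109 for Het and 0.181 and 0.152 for KO. The WT libraries lay between the Het libraries, and both KO ratios lay above WT, with 1 of them inside the range of Het. These positions depend on pairing the libraries by number. KO against WT gave a log2 change of 0.23 (95% interval -0.47 to 0.93, edgeR adjusted p = 0.824). Het against WT gave -0.02 (edgeR adjusted p = 1.0) and KO against Het 0.25 (edgeR adjusted p = 0.846).

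Cdkn1a, the cell cycle inhibitor, had the most footprints of the 3 genes and almost no RNA-seq counts. RNA-seq held 4 and 2 counts in WT (20.9 and 12.2 CPM), 7 and 8 counts in Het (19.9 and 32.2 CPM) and 10 and 4 counts in KO (24.8 and 8.4 CPM). The libraries of all genotypes overlapped. The summed counts of 6, 15 and 14 carry exact Poisson 95% intervals of 2.20 to 13.1, 8.4 to 24.7 and 7.65 to 23.5, which cover counting error only. The transcript did not pass the RNA-seq count filter and was not tested there. Without a count filter the KO against WT change was 0.17 (SE 0.73, edgeR adjusted p = 0.967), so that these counts bound the RNA change only loosely.

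Cdkn1a footprints were deep enough to bound a change more closely than RNA-seq did, though how closely depended on the method. WT organoids gave 87.6 CPM (728 counts) and 81.4 CPM (238 counts), and Het organoids 74.0 CPM (430 counts) and 83.0 CPM (677 counts). KO organoids gave 86.6 CPM (1212 counts) and 81.5 CPM (783 counts). All genotypes overlapped. The KO against WT log2 change was -0.02 (SE 0.08, 95% interval -0.19 to 0.15, edgeR adjusted p = 0.896). That interval leaves between 0.879 and 1.11 times the WT level. With DESeq2 the change was also -0.02, with a larger SE of 0.13. Het against WT gave -0.11 (95% interval -0.29 to 0.06, edgeR adjusted p = 0.678) and KO against Het 0.09 (95% interval -0.07 to 0.26, edgeR adjusted p = 0.420).

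The Cdkn1a ratio of footprint to RNA-seq CPM was above 1 in every organoid, at 4.19 and 6.68 for WT, 3.72 and 2.58 for Het and 3.50 and 9.70 for KO. These ratios divide by 2 to 10 RNA-seq counts. Density changes had wide intervals, 0.04 in KO against WT (95% interval -1.42 to 1.5, edgeR adjusted p = 1.0), -0.69 in Het against WT (-2.09 to 0.71, adjusted p = 0.857) and 0.73 in KO against Het (-0.39 to 1.85, adjusted p = 0.693). With thinned RNA-seq they were 1.68 in KO against WT (edgeR adjusted p = 0.569) and 2.27 in KO against Het (adjusted p = 0.490), both uncalled. The change in KO against Het was 1.57 without RNA_6070_homo and Ribo_6070_homo and 0.15 without RNA_6072_homo and Ribo_6072_homo.

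**Figure D4:**
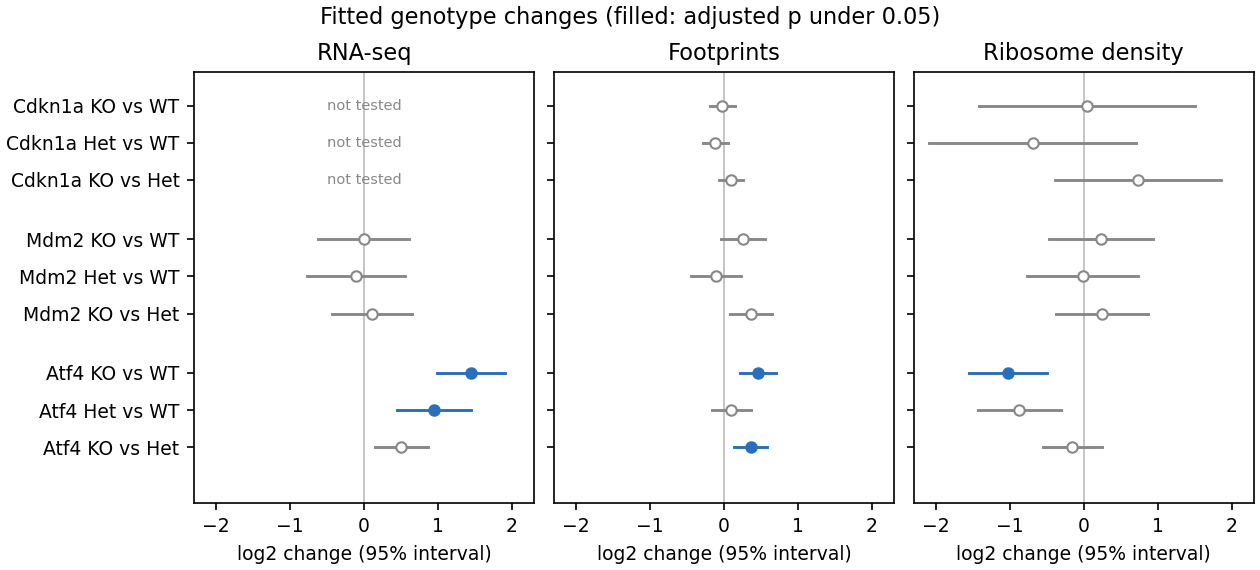
Fitted log2 changes with 95% intervals for each gene, comparison and measure, filled where the edgeR adjusted p was under 0.05. The 5 filled points all belong to Atf4: RNA 1.45 and 0.95, footprints 0.46 and 0.36, and density -1.02. Intervals of Cdkn1a are narrow for footprints and wide for density.

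Over the set, 1 of 2 genes tested in RNA-seq was called in KO against WT, beside 15.5% of all groups, and the midpoint of the 2 log2 changes was 0.72 beside a median of 0.01 over all groups. For footprints 1 of 3 was called beside 24.9%, with a median of 0.26 beside 0.0038. For density 1 of 3 was called beside 2.45%, with a median of 0.04 beside -0.08. The 1 gene called is Atf4 each time. Among groups with at least 10 counts in every library, which leaves out Cdkn1a, 17.2% were called for density.

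Set per 100 counted codons, the genes stood in different orders in the assays. In WT organoids RNA-seq gave 11.0 ± 4.1 CPM per 100 codons for Cdkn1a, 19.8 ± 2.8 for Mdm2 and 38.7 ± 11 for Atf4 (SD, n = 2 each), with no overlap between libraries of neighbouring genes. In Het the libraries of Cdkn1a and Mdm2 overlapped, at 13.3 and 21.5 against 15.4 and 22.6. In KO the means were 11.1 ± 7.7, 19.7 ± 3.1 and 104.4 ± 3.5 CPM per 100 codons. Footprints in WT gave 56.4 ± 2.9 for Cdkn1a, 7.04 ± 0.29 for Atf4 and 2.58 ± 0.43 for Mdm2 on the same scale. These orders are descriptions of levels and were not tested.

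Against all 19569 groups of the density test, Cdkn1a footprints per 100 codons were above those of 94.1% of groups in WT, while its RNA was above 71.9%. Its ratio exceeded that of 90.3% of the 18091 groups with RNA in WT. The RNA and ratio positions of Cdkn1a rest on 6 RNA-seq counts summed over WT, so they are imprecise. Atf4 RNA was above 93.0% (WT), 97.1% (Het) and 98.1% (KO) of groups, and its footprints above 63.5%, 65.2% and 70.5%. The Atf4 ratio, above 26.8% of groups in WT, was above 14.3% in KO. Mdm2 lay at 84.2% for RNA, 37.3% for footprints and 21.1% for the ratio in WT.

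Likeness was measured over groups averaging 50 or more counts in RNA-seq and in footprints. The one most like Atf4 over the 12 libraries was ENSMUST00000027040.13, with a Pearson r of 0.982 between log2(CPM + 1) values centred within each assay. Its KO against WT changes were 0.75 in RNA (edgeR adjusted p = 0.0179) and 0.24 in footprints (adjusted p = 0.145). ENSMUST00000117633.8 was most like Mdm2 (r = 0.909) and ENSMUST00000034034.10 most like Cdkn1a (r = 0.821). These are the highest of 1350 or 1351 correlations each, and both groups of a pair share the depth of each library, so that no p is given.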

How the data were processed

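The authors deposited 1 table of raw counts per library, with a transcript ID, a whole number or N/A, and a count in each of 278268 rows. That whole number is another value whose meaning is not stated in the deposited tables, and it was read as counted codons. Per the submitters' processing notes, CASAVA 1.8, cutadapt 3.7, UMI-tools 1.1.2, STAR 2.7.0a and mm39 were used, in roles and order not given. The counter, annotation and strand use are not given in the sources used here.

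Rows with shared reads were joined into 40818 groups: rows within 25 rows of each other with at least 24 counts and matching profiles, or identical counts from 6. Groups were tested with edgeR 4.0.16 (R 4.3.3; TMM, filterByExpr, quasi-likelihood test, Benjamini-Hochberg over all groups), with 3 residual degrees of freedom per assay. Density was the genotype by assay interaction over 12 libraries, with 6. DESeq2 1.42.0, other filters, scalings and units, a replicate block, omitted libraries and, chosen after seeing the data, thinned RNA-seq were alternatives. Tests were tried on simulated data. The genes and lists were chosen with earlier results of these data known. The text names the 3 genes whatever their values and the group most like each. The p53, stress response and cell type marker lists had no symbols to match and were not used. RNA-seq counts of 2 to 173 per gene and library limit precision. Intervals cover only counting error or the spread between the 2 libraries of a genotype, which the fits estimate partly from other groups.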

Additional observations from a re-analysis of the deposited data

How the results depend on the processing

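Of the alternatives that kept all libraries, 160 values counted as the same, 12 turned sign, 4 lost a call and 1 gained one. The same meant an equal sign and side of the threshold, with a missing adjusted p taken as uncalled. Cdkn1a RNA, which had no main test, counted as the same if it moved by less than the SD between its libraries. No turned value was called. With DESeq2 the Atf4 calls in RNA Het vs WT (0.92) and in footprints (0.44 for KO vs WT, 0.35 for KO vs Het) were lost, and thinned RNA-seq lost the density call (-0.98). Requiring 10 counts in every library gained the RNA call in KO vs Het (0.52). Without a count filter Mdm2 RNA was 0.25 (KO vs WT) and 0.062 (Het vs WT), Cdkn1a footprints 0.019 and Cdkn1a density -0.073 (both KO vs WT). Mdm2 RNA in KO vs WT was 0.10 with at least 10 counts and 0.0042 with 2 genotypes fitted. Thinned, it was 0.064 (Het vs WT) and -0.22 (KO vs Het). Mdm2 density in Het vs WT was 0.051 with RLE scaling, 0.057 with DESeq2, 0.029 with the replicate block and 0.052 when centred. The cause was not tested.

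Leaving out 1 organoid number at a time gave, for Atf4, 0.67 to 1.22 in RNA Het vs WT, 0.36 to 0.54 in footprints for KO vs WT, 0.23 to 0.47 for KO vs Het and -0.0029 to 0.23 for Het vs WT, and -1.36 to -0.76 in density KO vs WT. For Mdm2 it gave -0.16 to 0.18 in RNA for KO vs WT, -0.39 to 0.16 for Het vs WT and -0.17 to 0.40 for KO vs Het, 0.16 to 0.51 in footprints for KO vs WT and -0.20 to 0.14 for Het vs WT, and -0.30 to 0.23 in density for Het vs WT and -0.035 to 0.53 for KO vs Het. For Cdkn1a it gave -0.060 to 0.053 in footprints for KO vs WT, -0.53 to 0.89 in density for KO vs WT, and 0.15 to 1.57 in density for KO vs Het. The ratio of mean Cdkn1a RNA, untested, was 0.0015 (KO vs WT) and -0.65 (KO vs Het) on the log2 scale, and ran from -0.98 to 0.58 and from -1.63 to -0.073. In these fits the lone library of a genotype is assumed to vary like the others.

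With the replicate block by organoid number, Atf4 density changed by -1.05 in KO vs WT (edgeR adjusted p = 0.0138), and the block changed no call of the 3 genes. Same-numbered libraries deviated together with r of 0.062 in WT, 0.162 in Het and 0.040 in KO over 1385 groups of 300 or more RNA-seq counts, so that pairing was not taken as shown. The block gave 17 density calls in Het vs WT against 9.

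Counts of calls over all groups moved by over 1.5 times as follows, in the order KO against WT, Het against WT and KO against Het. RNA-seq called 1165, 127 and 449, DESeq2 338, 37 and 98, every row 2524, 349 and 1014, and thinned 731 and 213 in the KO comparisons. Without a count filter the RNA-seq calls in KO vs WT split into 816 higher and 277 lower, against 539 and 626, and those in Het vs WT into 86 higher and 23 lower, against 44 and 83. Footprints called 5111, 248 and 4686, DESeq2 2185, 68 and 1798, and every row 9907 and 9229 in the KO comparisons. Footprints in Het vs WT gave 592 without a filter and 123 with 2 genotypes. Density called 479, 9 and 274, every row 1062, 28 and 577, and thinned 286, 5 and 120. Density in Het vs WT gave 38 with DESeq2 and 31 with at least 10 counts, and KO vs Het 150 without a filter. Without 1 organoid number the counts ran from 622 to 862, 34 to 176 and 212 to 351 in RNA-seq, 2969 to 4549, 67 to 296 and 2463 to 3154 in footprints, and 256 to 288, 1 to 19 and 126 to 147 in density.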
